A study of Mus musculus with 14 samples.

Results

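Of the 149378 H3K4me3 peak summits on chromosomes 1 to 19, 4261 (2.85%) lay outside every RefSeq gene body and more than 10 kb from any gene boundary. They were chosen by position alone, with no measured value, and are called far intergenic summits here. They fell in 2590 of the 48695 called regions of the shared peak set. The whole set held 153207 summits. Of the other autosomal summits, 109066 lay within 2 kb of a gene boundary, 32014 lay deeper inside genes, and 4037 lay outside genes at 2 to 10 kb.

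The tissue was prefrontal cortex. The mice were C57BL/6J males of 10 to 12 weeks, and the labels name no transgene or targeted allele. In the CSDS10 group (5 libraries), mice met an aggressive CD1 mouse daily for 10 days and lived next to one behind a perforated divider between meetings. The CSDS30 group (5 libraries) had 30 such days. Tissue was taken 24 hours after the last meeting. The control group (3 libraries) lived in divided cages and met no aggressor. The labels number the libraries of a group but do not tie them to separate animals. The p-values therefore reflect only how far the libraries of a group differ, which may be technical. The tissue is a mixture of cell types, in which fewer marked cells and less mark per cell cannot be told apart. Of 21 marker genes of cortical cell types, 15 had a summit near a boundary (at most 2 kb away), among them Slc17a7, Camk2a, Gad1, Mbp and Slc1a2. The 6 without one were Slc32a1, Mog, Aqp4, Csf1r, Cx3cr1 and Pecam1. Of 6 marker genes of other tissues, Ckm had a summit there and Alb, Krt5, Krt14, Myh6 and Ins2 had none. The strongest such summit of Ckm had a control mean of 78.2 ± 5.50 (SD), higher than that of every listed cortical marker except Mbp (87.1 ± 11.2). The presence of a summit alone is therefore a weak check of the tissue.

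H3K4me3 is the trimethylated form of lysine 4 on histone H3. It is laid down mainly at promoters, where RNA polymerase II starts transcription. Sites of this mark outside annotated genes can belong to the starts of transcripts that the annotation does not hold, such as the long primary transcripts from which microRNAs are cut, or to strong enhancers. A microRNA finds its targets mainly through its seed, the bases near its 5′ end that pair with the target RNA.

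Several of the longest chains of far intergenic summits lay within 50 kb of microRNA genes, so the sequences of those microRNAs are given first. Summits less than 5 kb apart were joined into stretches. Within 50 kb of the stretches with at least 4 summits lay 31 RefSeq microRNA genes, of which 25 have a sequence in the RefSeq table used here (GRCm38). Of the 25, 22 have a hairpin entry there, and Mir101c, Mir181c and Mir6239 have a mature entry only. The 6 without a sequence are Mir124a-1, Mir3078, Mir30b, Mir30d, Mir6980 and Mir6981. Sequences run 5′ to 3′, and the capitals mark the seed, bases 2 to 8. The 5 let-7 microRNAs belong to 2 loci and share the seed GAGGUAG. Mirlet7c-2 and Mirlet7b lie on chromosome 15, and Mirlet7a-1, Mirlet7f-1 and Mirlet7d lie on chromosome 13.
mmu-let-7c-5p: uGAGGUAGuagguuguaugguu
mmu-let-7b-5p: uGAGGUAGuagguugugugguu
mmu-let-7a-5p: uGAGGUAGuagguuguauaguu
mmu-let-7f-5p: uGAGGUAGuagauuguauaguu
mmu-let-7d-5p: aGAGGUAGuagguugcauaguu
The products of Mir30a and Mir30c-2 on chromosome 1 share the seed GUAAACA.
mmu-miR-30a-5p: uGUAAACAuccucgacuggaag
mmu-miR-30c-5p: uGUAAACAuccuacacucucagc
Mir23a, Mir27a and Mir24-2 on chromosome 8 have products with different seeds.
mmu-miR-23a-3p: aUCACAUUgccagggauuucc
mmu-miR-27a-3p: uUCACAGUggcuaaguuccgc
mmu-miR-24-3p: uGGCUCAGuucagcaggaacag
The products of Mir129-1 on chromosome 6, Mir688 on chromosome 15 and Mir146 on chromosome 11 are shown for 3 more of the stretches that lay upstream of a hairpin.
mmu-miR-129-5p: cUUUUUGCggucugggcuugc
mmu-miR-688: uCGCAGGCgacuacuuauuc
mmu-miR-146a-5p: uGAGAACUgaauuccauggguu

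The far intergenic summits differed widely in their distance to the nearest gene. The median distance to a gene boundary was 20.9 kb (quartiles 14.2 and 34.4 kb), and the median distance to a protein-coding gene was 44.0 kb. Beyond 20 kb lay 2248 summits (52.8%), beyond 50 kb 617 (14.5%) and beyond 100 kb 160 (3.75%). The nearest gene was a long noncoding RNA for 1755 summits (41.2%), a protein-coding gene for 1508 (35.4%), a pseudogene for 725 (17.0%) and a microRNA for 90 (2.11%). Chromosomes 12 and 18 had the highest shares of far summits, 4.21% and 4.19% of their summits. Chromosome 7 had the lowest, 1.66%.

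The far summits formed 1870 stretches, of which 888 (47.5%) held a single summit. Neighbouring summits of a stretch lay 190 bp apart in the median, so neighbours may share reads and were not read as independent. The 33 stretches of 8 or more summits held 442 summits. The largest, with 83 summits, lay upstream of Mirlet7c-2. The called region with the most far summits (17) was part of it, at chr15:85669866-85673058. Next came a region of 13 summits at chr2:18607664-18609899, 62.5 kb from Commd3 and 20.6 kb from the transfer RNA gene n-TNgtt9. Its mean signal was 61.7 ± 3.13 in control (SD, n = 3), 56.9 ± 2.80 in CSDS10 (SD, n = 5) and 62.1 ± 3.99 in CSDS30 (SD, n = 5). The third, of 10 summits at chr1:23256391-23258004, lay upstream of Mir30a.

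Signal is the authors' normalised read count at a summit. In control libraries, the median signal of far intergenic summits was 25.5 ± 1.06 (SD of the library medians, n = 3), against 48.3 ± 0.274 within 2 kb of a gene boundary, 30.2 ± 0.814 inside genes and 27.4 ± 1.30 at 2 to 10 kb outside genes. The far median was below the boundary median in 13 of 13 libraries. A control mean over 50 was reached by 419 far summits (9.83%) and by 48.2% of boundary summits. A mean over 100 was reached by 34 far summits (0.798%), against 10.0% at boundaries. A far summit of median signal rested on 15 to 37 reads, depending on the library.

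Signal was lower farther from genes. In control, the median was 26.3 ± 1.03 at 10 to 20 kb, 25.1 ± 0.768 at 20 to 50 kb, 23.4 ± 1.78 at 50 to 100 kb and 21.4 ± 1.70 beyond 100 kb (SD, n = 3). The same order held for the CSDS10 means (25.4, 24.9, 23.5 and 21.8) and the CSDS30 means (28.0, 26.7, 25.3 and 23.4). From each class to the next, the median was lower in 10, 9 and 13 of 13 libraries. The type of the nearest gene went with smaller differences. In control, medians were 25.8 ± 1.24 next to protein-coding genes, 25.8 ± 0.587 next to long noncoding RNAs, 24.4 ± 0.883 next to pseudogenes and 27.3 ± 1.99 next to microRNAs.

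**Figure D1:**
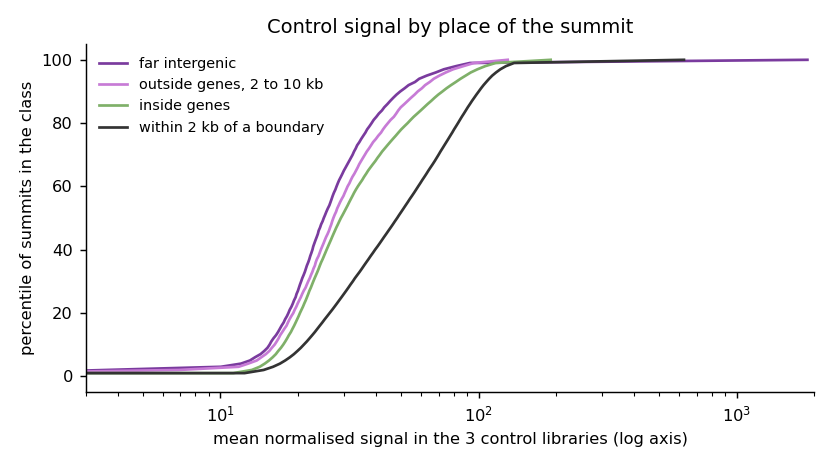
Percentile of summits (vertical axis) against the mean normalised signal in the 3 control libraries (horizontal log axis), for 4 classes of summit by place. The curve of the far intergenic summits lies to the left of the others from percentile 2 to 99, and 9.83% of far summits exceed 50 against 48.2% of those within 2 kb of a gene boundary.

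The strongest far summits lay at the start of the assembled sequence of chromosome 9, at chr9:3002121-3028573. This stretch of 38 summits in 36 called regions sits at the centromeric end of the chromosome and is 10.1 kb from Mir101c, the nearest gene, and 306.7 kb from Alkbh8, the nearest protein-coding gene. The summit at chr9:3006795-3006796 had signals of 1161, 2262 and 2212 in control. It had 1709, 2092, 1518, 1342 and 1167 in CSDS10 and 1146, 2460, 1984, 1523 and 1227 in CSDS30. The groups overlapped over almost their whole range, and the highest library of CSDS30 was 2.15 times its lowest. The libraries highest in their groups were control replicates 2 and 3, CSDS10 replicate 2, and CSDS30 replicates 2 and 3, and the same held at the next 4 summits of the stretch by control signal. Of the 38 summits, 6 exceeded 100 in control, while the median was 11.6. The stretch held 0.0344% to 0.0784% of the autosomal summit reads of a library. The input library was not analysed, so how much of this signal is background rather than the mark was not tested.

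Outside that stretch, the strongest far summit lay at chr8:20122501-20122502, 13.8 kb from the gene model Gm21811. Its signals were 180.3, 199.8 and 178.8 in control, 218.2, 228.7, 227.8, 172.8 and 186.2 in CSDS10, and 187.1, 174.9, 212.5, 165.1 and 187.7 in CSDS30. The groups overlapped, with the 3 highest values in CSDS10 and the lowest in CSDS30. A summit 33.2 kb from Pum2, which codes for an RNA-binding repressor of translation, had 121.3 ± 8.59 in control (SD, n = 3), 131.7 ± 8.66 in CSDS10 and 126.6 ± 14.4 in CSDS30 (SD, n = 5), at chr12:8640937-8640938. A summit 10.5 kb from Larp1, a regulator of ribosomal protein mRNAs, had 116.0 ± 15.1, 116.2 ± 12.1 and 109.5 ± 10.1 in the same order, at chr11:57962909-57962910. At both summits the groups overlapped.

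The 4 summits farthest from any gene were near 0 or below the far median in control. The farthest, at chr14:82753449-82753450, lay 631.2 kb from the gene model Gm19050. It had 1.15 in control replicate 3, which is a single read, and 0 in the other 12 libraries. A summit at chr8:6572321-6572322, 348.4 kb from Gm24288, had 13.3 ± 3.72 in control, 21.0 ± 11.9 in CSDS10 and 14.6 ± 6.71 in CSDS30. Another, at chr16:69469488-69469489 and 326.7 kb from 4930428D20Rik, was not unusually weak for a far summit. It had 19.96 ± 4.63 in control, 22.9 ± 13.9 in CSDS10 and 25.6 ± 10.4 in CSDS30. At the 10 kb limit, the 3 members just beyond it had control means of 36.6, 19.6 and 41.0, and the 3 summits just short of it had 1.67, 31.4 and 16.7.

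Far intergenic summits held 1.73% ± 0.0262 of the autosomal summit reads in control (SD, n = 3), 1.69% ± 0.127 in CSDS10 and 1.83% ± 0.173 in CSDS30 (SD, n = 5). The control values were 1.75, 1.70 and 1.74%. Those of CSDS10 were 1.63, 1.49, 1.74, 1.79 and 1.79%, and those of CSDS30 were 1.68, 2.11, 1.75, 1.89 and 1.73%. The groups overlapped. The lowest of the 13 was CSDS10 replicate 2 (95% Wilson interval 1.483 to 1.503%) and the highest CSDS30 replicate 2 (2.10 to 2.12%); these intervals cover counting error only. Without these 2 libraries, the means were 1.74% ± 0.0764 and 1.76% ± 0.0887 (SD, n = 4). Without the chromosome 9 stretch they were 1.67% ± 0.0405 in control, 1.64% ± 0.140 in CSDS10 and 1.78% ± 0.158 in CSDS30.

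The same 2 libraries stood apart at summits 2 to 10 kb outside genes, with 1.47% and 2.06% of reads against 1.66 to 1.92% in the other 11. Their total summit reads were 5677624 and 4750679, within the range of 4512817 to 10887911 over all 13. All libraries carry 1 batch date in the labels. The part of these 2 libraries in the group differences below was not tested beyond leaving them out.

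**Figure D2:**
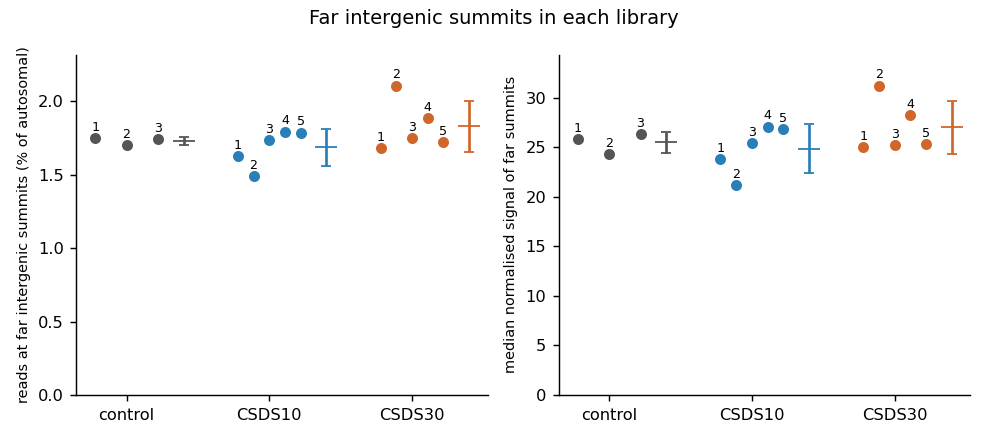
Share of autosomal summit reads at far intergenic summits (left, percent) and their median normalised signal (right) in each of the 13 libraries, numbered by replicate; the bars beside the points give the mean and SD of each group. CSDS10 replicate 2 is the lowest (1.49%) and CSDS30 replicate 2 the highest (2.11%), and the other 11 libraries of the 3 groups overlap.

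Group differences were tested with limma on log2(signal + 1) over 152270 summits at once, and 4158 far summits passed the filter on low values. After Benjamini-Hochberg adjustment, no far summit passed 0.05 in any of the 3 comparisons, and neither did any other summit (0% called in each). edgeR and DESeq2 on the recovered reads also called 0 far summits. At unadjusted p under 0.05, edgeR had 44 higher and 65 lower in CSDS10 against control, 89 and 19 in CSDS30 against control, and 133 and 13 in CSDS30 against CSDS10. The edgeR shares of far summits were 1.06 and 1.56%, 2.14 and 0.457%, and 3.20 and 0.313%, against 1.84 and 1.18%, 1.45 and 1.79%, and 1.83 and 2.66% of all tested summits. DESeq2 had 53 and 79, 104 and 22, and 150 and 21, or 1.27 and 1.90%, 2.50 and 0.529%, and 3.61 and 0.505%. All tested summits had 2.14 and 1.41%, 1.70 and 2.08%, and 2.07 and 3.05% with DESeq2. The sets given below as higher or lower at an unadjusted p under 0.05 are therefore descriptions, read against the share of all tested summits that reached it. Summits named for a small p will often have groups that do not overlap, because of that choice. The share of all tested summits whose groups do not overlap was not counted, so non-overlap is description only.

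CSDS10 against control asks what 10 days of defeat changed. Of the 4158 far summits, 51 (1.23%) were higher and 75 (1.80%) lower at unadjusted p under 0.05, against 1.99% and 1.22% of all tested summits. The median log2 difference of the far summits was -0.0388, against 0.00171 over all tested summits, and 44.5% were above 0. Summits outside genes at 2 to 10 kb had a median of -0.0635, those inside genes 0.000775 and those within 2 kb of a boundary 0.00337. Leaving out CSDS10 replicate 2 turned the far median to 0.0111 and gave 102 higher (2.45%) and 73 lower (1.76%), against 2.78% and 1.74% of all tested summits. Without control replicate 3 there were 33 and 34 (0.794 and 0.818%, against 1.52 and 0.601% of all). Without control replicate 1 there were 89 and 70 (2.14 and 1.68%, against 3.12 and 1.48%). Without CSDS10 replicate 5 there were 33 and 97 (0.794 and 2.33%, against 1.87 and 1.42%). The far share of higher summits was below that of all tested summits in each of these 4 refits, and the far share of lower ones was above it. The second part did not hold without CSDS10 replicate 2 and CSDS30 replicate 2 together. Then 2.62% were higher and 1.85% lower, against 3.05 and 2.12% of all tested summits.

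The far summit with the smallest p in this comparison lay at chr15:59633983-59633984, 10.01 kb from its nearest gene, the noncoding Gm36677. It was 14.7 kb from the nearest protein-coding gene, Trib1, which codes for a pseudokinase that steers protein degradation. Its signal was 30.1, 33.9 and 22.9 in control and 11.5, 9.88, 14.1, 13.6 and 15.5 in CSDS10. The groups did not overlap, and the log2 difference was -1.11 ± 0.33 (SE, limma unadjusted p = 0.00208, adjusted p = 0.9999). A stronger summit lay 15.1 kb from Hmgb1, a nuclear protein that bends DNA, at chr5:149031573-149031574. It had 104.8, 85.1 and 95.1 in control and 65.6, 63.5, 57.4, 84.7 and 61.0 in CSDS10, with a log2 difference of -0.52 ± 0.18 (SE, limma unadjusted p = 0.00582, adjusted p = 0.9999). Every CSDS10 library was below every control library there, while the CSDS30 libraries ranged from 68.7 to 107.3. Summits 14.7 kb from Rab12, 12.9 kb from Myl10 and 10.3 kb from Impa2 had log2 differences of -1.06, -0.95 and -1.0.

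On the higher side, a summit lay 21.1 kb from Ppp1r12a, the targeting subunit of myosin phosphatase, at chr10:108301112-108301113. It had 16.8, 22.6 and 10.3 in control and 32.8, 33.9, 32.0, 28.8 and 34.2 in CSDS10. All 5 CSDS10 libraries were above all 3 controls, with a log2 difference of 0.99 ± 0.30 (SE, limma unadjusted p = 0.00247, adjusted p = 0.9999). Also named were a summit 11.3 kb from Lrfn3, a synaptic adhesion protein (log2 difference 1.11 ± 0.348), and a summit 40.9 kb from Cxxc4, an inhibitor of Wnt signalling (0.91 ± 0.332). A summit 22.3 kb from Mir30d, at chr15:68363560-68363561, had 22.4, 23.5 and 27.5 in control and 41.0, 48.0, 31.1, 59.3 and 41.5 in CSDS10 (log2 difference 0.80 ± 0.27, limma unadjusted p = 0.00554, adjusted p = 0.9999). The groups did not overlap at that summit.

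CSDS30 against control asks the same of 30 days. Here 75 far summits (1.80%) were higher and 14 (0.337%) lower at unadjusted p under 0.05, against 1.44% and 1.97% of all tested summits. The median log2 difference was 0.0688, against 0.00435 over all tested summits, and 60.5% were above 0. Summits outside genes at 2 to 10 kb had a median of 0.0574, those inside genes 0.0509 and those within 2 kb of a boundary -0.0111. At a mean signal of 20 to 30, the medians were 0.0827 for far, 0.0789 for 2 to 10 kb, 0.103 for inside and 0.0769 for boundary summits. Without CSDS30 replicate 2 the far median was 0.0233, with 41 higher and 21 lower (0.986 and 0.505%, against 1.07 and 1.15% of all tested summits). Cyclic loess scaling, which evens out differences that depend on level, gave a median of 0.0218, with 52 higher and 20 lower (1.25 and 0.481%, against 1.49% in each direction). Under both settings the far share of higher summits was no longer above that of all tested summits. Nor was it with the replicate numbers as a block (1.32%, against 1.52% of all) or without CSDS30 replicate 4 (1.27%, against 1.40%). It was 1.42%, against 1.46% of all, without CSDS10 replicate 2 and CSDS30 replicate 2 together. Counts also moved to 124 and 25 without control replicate 1 (2.98 and 0.601%, against 2.81 and 2.28% of all) and to 50 and 9 without control replicate 3 (1.20 and 0.216%, against 1.12% in each direction). They were 110 and 21 without CSDS30 replicate 5 (2.65 and 0.505%, against 2.50 and 3.17%). Without CSDS10 replicate 2, which enters through the shared estimate of the spread, they were 98 and 24 (2.36 and 0.577%, against 1.88 and 2.50%).

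The smallest p of all far summits belonged to this comparison. At chr16:21311280-21311281, 14.4 kb from the noncoding gene Gm16863 and 88.0 kb from Ephb3, the signal was 57.3, 57.3 and 67.6 in control. It was 26.6, 48.4, 23.1, 23.1 and 37.7 in CSDS30 and 39.4, 40.9, 33.9, 40.7 and 48.0 in CSDS10. Every defeated library was below every control library, and the log2 difference of CSDS30 from control was -0.97 ± 0.251 (SE, limma unadjusted p = 0.000512, adjusted p = 1). It stayed between -1.13 and -0.87 when each library was left out. A summit 11.9 kb from Fam181b, at chr7:93093601-93093602, had 33.97 ± 4.84 in control (SD, n = 3), 25.1 ± 4.26 in CSDS10 and 19.8 ± 3.39 in CSDS30 (SD, n = 5), with a log2 difference of -0.76 ± 0.292. A summit 34.5 kb from Dlx2, a transcription factor of interneuron development, had 89.7 ± 22.6, 74.3 ± 5.34 and 64.7 ± 13.2 in the same order, and its groups overlapped. Its nearest gene was the noncoding Gm36857, 10.04 kb away.

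The summits named on the higher side had control means of 9.26 to 26.2. A summit 17.1 kb from Six2, a developmental transcription factor, at chr17:85645645-85645646, had 10.5, 10.4 and 6.88 in control and 13.3, 28.1, 29.5, 22.2 and 20.3 in CSDS30. The groups did not overlap, and the log2 difference was 1.18 ± 0.373 (SE, limma unadjusted p = 0.00339, adjusted p = 1). A summit 23.8 kb from the noncoding gene Gm35177 and 50.01 kb from Gramd1b, at chr9:40583620-40583621, had 11.2 ± 3.15 in control and 25.1 ± 5.13 in CSDS30. A stronger one, at chr1:128472769-128472770, had 26.2 ± 6.97 in control and 45.5 ± 6.70 in CSDS30 (log2 difference 0.79 ± 0.264). It lay 17.3 kb from the small nucleolar RNA gene Gm23902 and 55.4 kb from Dars.

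CSDS30 against CSDS10 asks where the longer exposure differed from the shorter. Of the far summits, 155 (3.73%) were higher and 18 (0.433%) lower at unadjusted p under 0.05, against 2.01% and 3.11% of all tested summits. The median log2 difference was 0.104, against -0.000344 over all tested summits, and 66.9% were above 0. This difference was smaller without CSDS10 replicate 2 or CSDS30 replicate 2. Without CSDS30 replicate 2 there were 77 higher and 30 lower with a median of 0.0615 (1.85 and 0.722%, against 1.38 and 1.89% of all tested summits). Without both libraries there were 82 and 57 with a median of 0.0128 (1.97 and 1.37%, against 2.02 and 2.04% of all). The far share of higher summits was then no longer above that of all tested summits. Without CSDS10 replicate 2 there were 124 and 27 (2.98 and 0.649%, against 2.03 and 2.41%). Without CSDS30 replicate 1 there were 229 and 27 (5.51 and 0.649%, against 2.93 and 3.97%), and without CSDS30 replicate 4 there were 102 and 15 (2.45 and 0.361%, against 1.48 and 2.68%). The comparisons share libraries, so their differences are not independent of each other.

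The median difference between CSDS30 and CSDS10 was larger at weak summits in every class of place. Far summits with a mean signal of 10 to 20 had a median log2 difference of 0.164, those of 20 to 30 had 0.130, those of 30 to 50 had 0.0772 and those of 50 to 100 had 0.0317. Summits within 2 kb of a gene boundary had 0.121, 0.0762, 0.026 and -0.0553 at the same levels. Summits outside genes at 2 to 10 kb had 0.198, 0.161, 0.103 and 0.0276. Cyclic loess scaling brought the far median from 0.104 to 0.0459, with 88 higher and 31 lower (2.12 and 0.746%, against 1.85 and 2.21% of all tested summits).

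**Figure D3:**
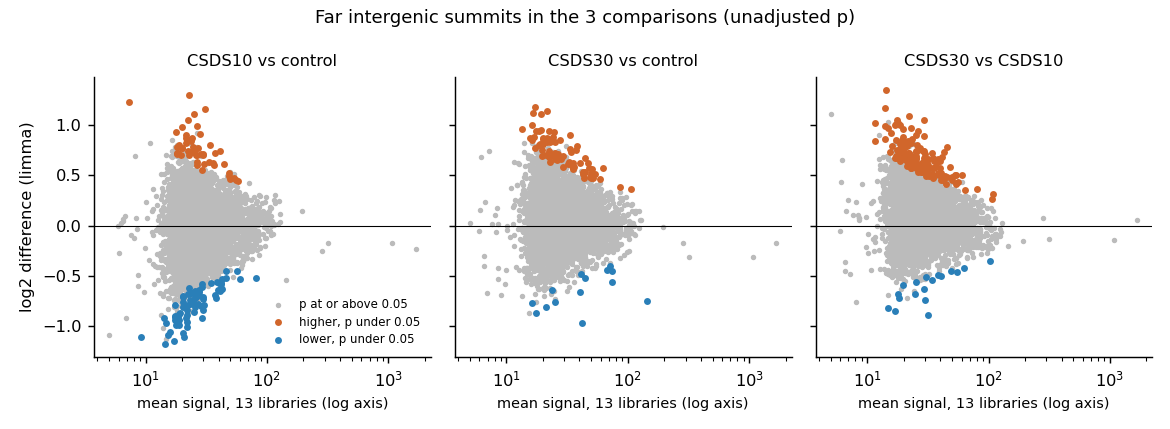
Log2 difference from limma (vertical axis) against the mean signal over 13 libraries (horizontal log axis) for the 4158 tested far intergenic summits in each comparison; coloured points have an unadjusted p under 0.05 and none passed the adjusted threshold. Higher points outnumber lower ones in CSDS30 vs CSDS10 (155 to 18), and lower ones are more numerous in CSDS10 vs control (75 to 51).

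The summit with the smallest p between CSDS30 and CSDS10 lay 10.3 kb upstream of Mir23a, at chr8:84198202-84198203. It had 32.8, 35.3, 31.1, 32.2 and 30.9 in CSDS10 and 43.9, 73.4, 55.7, 63.3 and 50.7 in CSDS30. The groups did not overlap, and the log2 difference was 0.78 ± 0.204 (SE, limma unadjusted p = 0.000543, adjusted p = 0.9629). The control values of 55.2, 30.4 and 52.7 spanned both groups. A summit 10.3 kb from Impa2, an inositol monophosphatase, at chr18:67278950-67278951, had 9.02, 14.1, 8.47, 13.6 and 19.5 in CSDS10 and 24.3, 35.9, 25.2, 34.2 and 20.3 in CSDS30. These groups did not overlap either, with a log2 difference of 1.08 ± 0.302 (SE, limma unadjusted p = 0.00108, adjusted p = 0.9629), and control had 25.2, 17.4 and 39.0. A summit 20.8 kb from Wnk2, a kinase that regulates ion transport, had 10.1 ± 2.77 in CSDS10 and 23.4 ± 10.3 in CSDS30.

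Lower in CSDS30 than in CSDS10 was a summit 71.0 kb from the pseudogene Gm18515 and 165.9 kb from Dcn, at chr10:97313648-97313649. It had 72.9 ± 10.6 in CSDS10 and 54.3 ± 9.02 in CSDS30 (log2 difference -0.42 ± 0.171, limma unadjusted p = 0.0194, adjusted p = 0.9629). A summit at chr17:22081049-22081050, 12.1 kb from the pseudogene Gm7818 and 63.3 kb from Zfp947, had 114.2 ± 14.9 in CSDS10 and 90.1 ± 20.3 in CSDS30, with overlapping groups. A second summit near Mir30d, at chr15:68362694-68362695, had 62.5 ± 14.9 in CSDS10, 45.1 ± 9.74 in CSDS30 and 59.3 ± 7.79 in control.

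**Figure D4:**
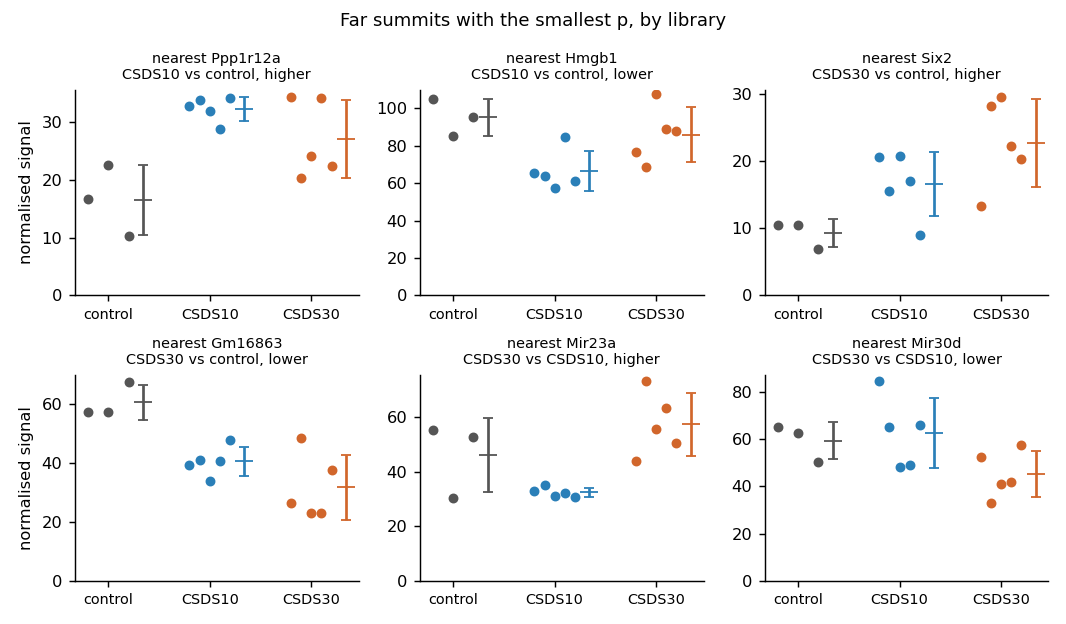
Normalised signal of 6 far intergenic summits in each library (points), with the mean and SD of each group beside them; each panel names the nearest gene and the comparison in which its p was among the smallest. The groups named in the panel do not overlap for the summits near Ppp1r12a, Hmgb1, Six2, Gm16863 and Mir23a, and they overlap for the summit near Mir30d. The summits were picked for a small p, which favours groups that do not overlap.

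Of the stretches with at least 4 far summits, 16 had a microRNA gene with a RefSeq sequence within 50 kb. Of these, 9 lay upstream of the nearest such gene on its strand and 7 downstream, a nearly even split. The Mirlet7c-2 locus enters the 9 with both of its stretches. The chromosome 9 stretch was among the 7 downstream, with Mir101c as its microRNA gene. The 16 were noted after the values were seen, and how often other stretches lie as near a microRNA gene was not counted. The largest group was on chromosome 15, where 105 summits in 32 called regions (2.46% of all far summits) lay between 53.7 and 20.9 kb upstream of the Mirlet7c-2 hairpin (chr15:85706603-85706697, plus strand), whose mature product carries the let-7 seed shown above. They spread over 32.7 kb, at chr15:85652947-85685666, with annotated noncoding genes on either side. The strongest summit lay 34.7 kb upstream of the hairpin and had 97.1, 87.7 and 114.6 in control, 117.3, 148.2, 96.0, 98.3 and 98.4 in CSDS10, and 119.8, 90.6, 98.9, 86.4 and 110.9 in CSDS30. The 3 groups overlapped.

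Averaged over the 105 summits, the signal was 40.1, 39.8 and 42.1 in control. It was 39.6, 46.0, 39.9, 44.5 and 39.4 in CSDS10 and 39.6, 42.0, 44.0, 41.5 and 46.9 in CSDS30. The groups overlapped, and CSDS10 replicate 2, the lowest library for far summits as a whole, was the highest of its group here. It was also the highest of its group in the stretch of 83 summits (51.8), but in the stretch of 22 summits it was the lowest (24.3, against 32.3 to 40.1). At unadjusted p under 0.05, 1.99% of all tested summits were higher and 1.22% lower in CSDS10 than in control. The shares were 1.44 and 1.97% in CSDS30 against control, and 2.01 and 3.11% in CSDS30 against CSDS10. Of the 105 summits, 2 were higher and 2 lower, 5 and 1, and 5 and 0 in the same order. One of them was a named summit, at chr15:85671574-85671575, with 89.9 ± 11.1 in control (SD, n = 3), 78.4 ± 28.8 in CSDS10 and 61.3 ± 12.9 in CSDS30 (SD, n = 5; log2 difference of CSDS30 from control -0.56 ± 0.218, limma unadjusted p = 0.0147, adjusted p = 1).

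**Figure D5:**
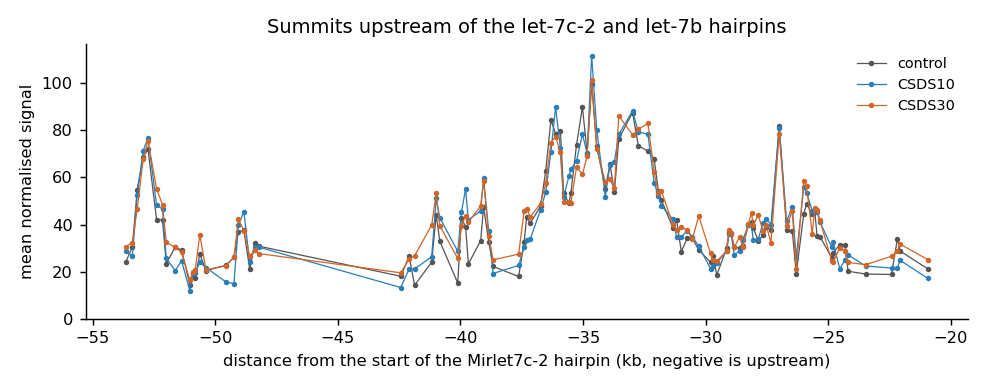
Mean normalised signal per group (vertical axis) at the 105 far summits upstream of the Mirlet7c-2 hairpin, by distance from its start in kb (horizontal axis, negative is upstream). The 3 groups follow the same peaks, the highest of them 34.7 kb upstream, and the straight line between 48.2 and 42.4 kb spans a gap without far summits.

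Upstream of Mir30a and Mir30c-2, whose products share the seed GUAAACA, 13 summits lay at chr1:23255781-23258811, 13.5 kb from the Mir30a hairpin. Their mean signal was 54.7, 42.4 and 47.4 in control, 55.2, 59.1, 52.6, 54.0 and 54.7 in CSDS10, and 54.3, 49.3, 58.3, 44.9 and 43.1 in CSDS30. The CSDS10 libraries were in the upper part of the control range or above it, and none of the 13 summits reached an unadjusted p under 0.05 in any comparison. Near Mir30d and Mir30b, a further pair of miR-30 genes, 10 summits at chr15:68361491-68363725 had means of 51.6 ± 3.39 in control, 55.3 ± 2.42 in CSDS10 and 49.4 ± 4.65 in CSDS30. There, 2 of the 10 were higher in CSDS10 than in control and 3 were lower in CSDS30 than in CSDS10 at unadjusted p under 0.05. Of all tested summits, 1.99% and 3.11% were. The 10 are neighbours that may share reads, so they are not independent.

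The stretch upstream of Mir23a, Mir27a and Mir24-2, with 10 summits at chr8:84192569-84198446, had 45.7, 35.7 and 39.9 in control. It had 36.9, 33.3, 33.8, 37.8 and 35.1 in CSDS10 and 31.7, 43.6, 43.8, 46.1 and 44.1 in CSDS30. In CSDS30, 4 of 5 libraries lay above all CSDS10 libraries and replicate 1 lay below them. Of its 10 summits, 2 were higher in CSDS30 than in CSDS10 at unadjusted p under 0.05, against 2.01% of all tested summits. A positive log2 difference was found at 8 of the 10, against 66.9% of the tested far summits. These neighbours may share reads too. Mir181c and Mir181d, on the minus strand at lower coordinates of chromosome 8, also lay within 50 kb of the stretch. It was therefore upstream of them too, and is not tied to the Mir23a locus alone.

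Upstream of Mir129-1, 40.0 kb from its hairpin, 11 summits had 38.6 ± 6.09 in control, 41.9 ± 9.29 in CSDS10 and 40.3 ± 6.36 in CSDS30. The nearest gene to that stretch was Gm40357, 14.2 kb away. Upstream of Mir688, 20.6 kb from its hairpin at chr15:102692466-102693960, 7 summits had 36.0 ± 3.66, 39.7 ± 7.88 and 40.1 ± 2.83 in the same order. Of the 7, 1 was higher in CSDS10 than in control at unadjusted p under 0.05, against 1.99% of all tested summits. Upstream of Mir146, 10.4 kb from its hairpin, 6 summits had 41.6 ± 10.9, 43.6 ± 9.22 and 49.3 ± 8.25. The 4 summits upstream of Mirlet7a-1, the second let-7 locus, had 40.0 ± 3.33, 42.9 ± 10.6 and 43.2 ± 7.26. No other summit of these stretches reached an unadjusted p under 0.05 in any comparison.

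Of 193 autosomal genes in the cell type and function lists, 10 (5.18%) were the nearest gene of a far summit, against 1722 (3.66%) of 47042 autosomal RefSeq genes. The RefSeq genes include noncoding genes and pseudogenes, and the shares were not compared within protein-coding genes alone. There were 0 nearest genes of a far summit among 16 each for inhibitory neurons, astrocytes, microglia, the glucocorticoid and stress axis, and tissues other than brain in the lists used. Among 16 activity-regulated genes there were 2, Fos and Fosb, which code for transcription factors induced by neuronal activity, with 9 far summits. The strongest lay 16.6 kb from Fosb at chr7:19326664-19326665, with 57.3, 33.9 and 52.7 in control, 45.1, 33.9, 52.7, 61.0 and 52.9 in CSDS10, and 47.0, 60.9, 49.4, 48.8 and 68.1 in CSDS30. The groups overlapped.

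The strongest far summit nearest to Fos, 10.5 kb away at chr12:85487802-85487803, had 41.9, 16.5 and 31.0 in control. It had 26.3, 22.6, 40.5, 42.4 and 38.2 in CSDS10 and 36.8, 48.4, 36.8, 47.9 and 42.0 in CSDS30. CSDS30 overlapped control, with a log2 difference of 0.58 (limma unadjusted p = 0.0493, adjusted p = 1). It was the only one of these 9 summits under 0.05 in any of the 3 comparisons. Of all tested summits, 1.44% were higher in CSDS30 than in control at that threshold.

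Of 16 oligodendrocyte genes, Olig1, a transcription factor of that lineage, had 3 far summits 29.3 to 29.9 kb away. The strongest of them had 18.0 ± 6.11 in control, 13.7 ± 1.36 in CSDS10 and 18.3 ± 2.60 in CSDS30. Of 16 endothelial and mural genes, Kdr, a receptor for vascular growth factor, had 4 far summits about 97.1 to 97.7 kb away, and Erg, an endothelial transcription factor, had 2. The stronger summit of Erg had 24.0 ± 1.15 in control, 19.9 ± 4.60 in CSDS10 and 27.7 ± 1.97 in CSDS30, and every CSDS30 library was above every CSDS10 library (log2 difference 0.49, limma unadjusted p = 0.0653). Tle4 of the excitatory neuron list, Zfhx3 of the cortical transcription factors, and Cntnap2, Flrt2 and Slitrk1 of the synaptic adhesion genes had 3, 1 and 4 far summits in all, with control means of the strongest summit per gene between 1.60 and 24.99.

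The spread between libraries of a group followed the level of a summit rather than its place. The median within-group SD of log2(signal + 1) at far summits was 0.495 at a mean signal of 10 to 20, 0.437 at 20 to 30, 0.357 at 30 to 50 and 0.268 at 50 to 100. Summits within 2 kb of a gene boundary had 0.503, 0.44, 0.361 and 0.263 at the same levels. Because far summits were weaker, their 95% intervals were wider. The median half-width of the interval of the log2 difference was 0.661 against control and 0.572 between the defeated groups, compared with 0.529 and 0.458 over all tested summits. The interval lay within a 2-fold change in either direction for 70.2% of far summits in CSDS10 against control, 73.9% in CSDS30 against control and 81.6% in CSDS30 against CSDS10.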

How the data were processed

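H3K4me3 ChIP-seq libraries (100 bp reads, per the labels' protocols) were compared. Trimmomatic, Bowtie2, MACS2 and DESeq2 with mm10 and GRCm38.p5 are named in the submitters' processing notes; versions, counting window and duplicate handling: not given in the sources used here. Per summit and library, the authors deposited 1 normalised signal. All values (100%, tolerance 0.001) were whole multiples of a library's step, worth 0.699 to 1.69 per read, which gave the reads back. The authors' deposited peak score and the input library were not analysed here. Distances were taken to 49997 RefSeq genes (GRCm38.p6, boundaries without strand). limma 3.58.1 (trend, R 4.3.3) was fitted on log2(signal + 1) to all 13 libraries with a mean per group after filterByExpr (edgeR 4.0.16), with Benjamini-Hochberg adjustment over 152270 summits, and was tested on simulated data. edgeR and DESeq2 1.42.0 on recovered reads, other scalings, distances and left-out libraries were alternatives. The members, gene lists and rules for naming summits were chosen with earlier results of these data known. Named summits are those with the smallest p (5 per direction and comparison), the strongest, the farthest, those at the limit and those next to listed genes, with 1 per called region. The Wilson intervals of the read shares cover counting error only, and the reads carry no molecular identifiers. The limma intervals rest on the spread between libraries.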

Additional observations from a re-analysis of the deposited data

Results flagged for a closer look

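Among the 50 named summits, each checked in both groups of 5 libraries, and 4 measures of the libraries, 108 groups were checked for a single library far from the other 4, and 6 had one. For independent and unselected groups, chance gives about 1 in 20. Many of these summits were picked for a small p and some share a stretch, so that rate cannot decide whether the 6 arose by chance. At the chromosome 9 summit chr9:3024134-3024135, CSDS10 replicate 2 had 279.5, and the next library of its group had 131.2. At chr2:170219147-170219148, near Gm17619, CSDS10 replicate 2 was lowest with 15.5 against 21.7. At chr13:4943209-4943210, near Gm40658, CSDS10 replicate 4 had 69.5 against 36.7, and the log2 difference of CSDS30 from CSDS10 lay between -1.0 and -0.65 when each library was left out. At chr2:173546381-173546382, near 1700021F07Rik, CSDS10 replicate 5 had 15.5 against 7.06. At chr16:95341411-95341412, near Erg, CSDS30 replicate 1 was lowest with 24.3 against 28.1. At chr18:18837926-18837927, near Gm31086, CSDS10 replicate 2 had 1.41, a single read, and the others of its group had 0.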

How the results depend on the processing

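No far summit passed an adjusted p of 0.05 under any of the 90 alternatives. The 30 choices by smallest p kept their direction in their own comparison in 720 refits, where the lowest adjusted p was 0.548. They were picked for a small p, and leaving out a library of the third group cannot change their difference, so this is no test of stability. Other named summits did turn, such as the one near Fosb in CSDS10 vs control (log2 difference -0.186 to 0.185 with each library left out). The median log2 difference ranged from -0.0722 to 0.0111 in CSDS10 vs control, 0.0218 to 0.0961 in CSDS30 vs control and 0.0128 to 0.137 in CSDS30 vs CSDS10. The first turned to 0.0111 without CSDS10 replicate 2 and to 0.00821 beyond 50 kb. The spread of the library medians (0.126) exceeds all 3 medians as reported, so it is no test of their stability. The replicate numbers of the labels do not pair the libraries (correlations of same-numbered pairs from -0.287 to 0.368; 2 libraries correlated best with their own number). With the replicate block, 0 summits passed, with medians of -0.0722, 0.0409 and 0.104. Leaving out each library gave 0.794 to 2.45% higher and 0.818 to 2.33% lower in CSDS10 vs control, 0.986 to 2.98% and 0.216 to 0.601% in CSDS30 vs control, and 1.85 to 5.51% and 0.337 to 0.722% in CSDS30 vs CSDS10. Without CSDS10 replicate 2 and CSDS30 replicate 2 together, chosen after seeing the data, 2.62% were higher in CSDS10 vs control, 0.746% lower in CSDS30 vs control, and 1.97% higher and 1.37% lower in CSDS30 vs CSDS10. Cyclic loess gave 2.12% and 0.746% in the last comparison, and DESeq2 gave 0.529% lower in CSDS30 vs control. Called regions as rows gave 0.161% lower there. With distances to protein-coding genes only, 0.545% were lower in CSDS30 vs control and 0.84% in CSDS30 vs CSDS10. Beyond 50 kb, 1.02% were lower in CSDS10 vs control, 1.18% higher in CSDS30 vs control, and 2.03% higher and 0.846% lower in CSDS30 vs CSDS10; the number of members differs by construction. The control median signal was 22.8 beyond 50 kb and 27.2 with protein-coding genes only. The read share in control, CSDS10 and CSDS30 was 2.55, 2.47 and 2.68% beyond 5 kb, 0.881, 0.859 and 0.930% beyond 20 kb, 0.207, 0.208 and 0.221% beyond 50 kb, and 5.04, 4.99 and 5.29% with protein-coding genes only. In control it was 1.67% without the chromosome 9 stretch, a choice made after seeing the data. TMM scaling was not run for the read share, which no scaling changes. The median far summit rested on 15 to 37 reads.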
